A study of Mus musculus with 12 samples.

Results

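Isolated primary hepatocytes, the parenchymal cells of the liver, were compared between JNKΔhepa and WT mice on 6 one-colour whole-transcript arrays, 3 of each genotype, out of the 12 arrays of the series. The members are all samples whose titles name hepatocytes, and the other 6 arrays hold whole liver of the same 6 mice. All mice were male, labelled C57BL/6, kept on standard chow and 7 to 8 weeks old. WT mice (Jnk1f/fJnk2+/+) carry the floxed Jnk1 alleles that the JNKΔhepa mice also have, intact Jnk2, and no Cre named in the labels. JNKΔhepa mice lack Jnk2 (Mapk9) in every cell of the body, and their Jnk1 (Mapk8) is deleted by Albf-Cre, a Cre under the albumin promoter with enhancer elements of alpha-fetoprotein. The Cre itself, the loss of JNK1 in hepatocytes and the loss of JNK2 in all cells, residual non-parenchymal cells included, cannot be told apart in this comparison. How the hepatocytes were isolated, purified or cultured is not given in the sources used here.

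JNK1 and JNK2 are stress-activated kinases of the MAP kinase family. Upstream kinases (Map2k4 and Map2k7) switch them on after cytokine, metabolic or oxidative stress, and they phosphorylate transcription factors, above all c-Jun of the AP-1 complex, while dual-specificity phosphatases switch them off. In liver the pathway is known for its roles in cell death, regeneration, inflammation and lipid metabolism, and a hepatocyte preparation can carry Kupffer, endothelial and stellate cells, whose Jnk1 a hepatocyte Cre leaves in place.

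The deposited values are RMA values on the log2 scale. The 6 hepatocyte arrays had medians of 3.22 to 3.28 and the liver arrays 4.09 to 4.12, so that levels of hepatocytes and liver can be set side by side only with what appears to be a separate normalisation in mind. Arrays of a group correlated at r = 0.9865 to 0.9928 across probe sets. A gene is called dim on an array where it reads below the median of that array's probe sets. Where the lower group holds a dim array, a fold is written as "at least", and where both groups do, it is said to be not exact. All genotype differences are JNKΔhepa minus WT, tested with limma on 18820 genes with Benjamini-Hochberg adjustment, and a gene passed at an adjusted p under 0.05. In these 6 samples a lower transcript level in a bulk preparation may mean fewer cells of a type or less RNA per cell, which cannot be told apart.

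The targeted genes came first. For Mapk9, which encodes JNK2, the values were 8.10, 7.74 and 8.05 on the WT arrays against 2.62, 2.57 and 2.29 on the JNKΔhepa arrays. The JNKΔhepa arrays are dim, and the genotypes do not overlap. Mapk8, which encodes JNK1, stood much closer between the genotypes: the 3 WT arrays lay at 5.62, 5.51 and 5.66 and the 3 JNKΔhepa arrays at 4.952, 4.999 and 5.011. Its log2 change was −0.61 (SE 0.0762, limma adjusted p = 0.00183), again with no overlap. The deleted stretch of Mapk8 is not named in the labels and the probe set may lie outside it, so this value is no measure of the deletion. Among the 24 measured genes of the JNK cascade (kinases, scaffolds, phosphatases and substrates), 3 fell and 0 rose, where 0.473% and 0.367% of all 18820 genes did. The 3 include Mapk9 and Mapk8, the targeted genes that define the genotype, so this count says little about the rest of the cascade. The third, besides both kinases, was Dusp8, a phosphatase that inactivates JNK: WT arrays 1 to 3 gave 3.52, 3.58 and 3.61, and JNKΔhepa arrays 1 to 3 gave 2.71, 2.87 and 2.83. It fell at least 1.7-fold (log2 change −0.76 with SE 0.0935, limma adjusted p = 0.0015), and its arrays did not overlap. The median log2 change of the 24 genes was −0.09, against −0.0018 for all 18820 genes.

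The preparations of both genotypes carried hepatocyte transcripts at high and similar levels, and the mean signal of Kupffer and endothelial markers was lower in JNKΔhepa, with overlapping arrays. The hepatocyte check held: albumin (Alb) averaged 12.80 in WT and 12.83 in JNKΔhepa, transthyretin (Ttr) 12.42 and 12.45, and apolipoprotein A1 (Apoa1) 12.29 and 12.31. Of 20 measured hepatocyte markers 0 passed in limma (3 at an unadjusted p under 0.05), and their summed level on the linear scale in JNKΔhepa was 103% of WT. Kupffer cells, the resident macrophages of the sinusoids, were traced by 28 markers. Their summed level was 2324, 1504 and 2210 on WT arrays 1 to 3 and 1604, 1351 and 1246 on JNKΔhepa arrays 1 to 3. WT replicate 2 lay below JNKΔhepa replicate 1, so the genotypes overlap. The JNKΔhepa mean was 69.5% of WT in hepatocytes, while in whole liver it was 96.6%. In WT, the hepatocyte sum was 29.1% of the liver sum.

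Single Kupffer markers showed the same order of arrays. For Vsig4, a complement receptor of Kupffer cells, the values were 8.01, 7.17 and 8.11 on the WT arrays against 7.22, 6.82 and 6.41 on the JNKΔhepa arrays. For Clec4f, a lectin found on Kupffer cells, the 3 WT arrays lay at 7.23, 6.48 and 6.92 and the 3 JNKΔhepa arrays at 6.48, 6.05 and 5.86. Both read highest on WT replicates 1 and 3. C1qb, a chain of complement C1q made by macrophages, was the 1 marker of the 28 past the threshold: WT arrays 1 to 3 gave 8.14, 7.52 and 7.88, and JNKΔhepa arrays 1 to 3 gave 7.05, 6.93 and 6.33. It fell 2.11-fold (log2 change −1.08 with SE 0.196, limma adjusted p = 0.0225), against −0.15 in whole liver. The call was lost without WT replicate 1 (0.108), 3 (0.0856), JNKΔhepa replicate 2 (0.0599) or 3 (0.0748). Of the 28 markers 24 had values below 0, with a median log2 change of −0.61 against −0.07 in liver, and 22 had an unadjusted p under 0.05, 21 of them lower, against 12.6% of all genes. The macrophage pore-forming gene Mpeg1 ran the other way, with a log2 change of 0.54 (limma adjusted p = 0.136).

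Sinusoidal endothelial cells, which line the liver's capillaries, gave sums over 35 markers of 3648, 2826 and 3519 on WT arrays 1 to 3 and 2990, 2163 and 2145 on JNKΔhepa arrays 1 to 3. These overlap in the same pair of arrays. The JNKΔhepa mean was 73.0% of WT in hepatocytes and 105% in liver, and 33 of the 35 had values below 0 (median log2 change −0.44, against 0.06 in liver). In limma 0 of the 35 passed, and 26 had an unadjusted p under 0.05, 25 of them lower, against 12.6% of all genes. Cdh5, the cadherin of endothelial junctions, had the smallest p: the values were 7.06, 6.71 and 7.06 on the WT arrays against 6.54, 6.12 and 6.37 on the JNKΔhepa arrays (log2 change −0.60 with SE 0.132, limma adjusted p = 0.0568). Its arrays did not overlap.

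Stellate cells, the vitamin A-storing pericytes of liver, gave sums over 27 markers of 1213, 1113 and 1273 in WT against 1183, 961.6 and 1007 in JNKΔhepa. The mean was 87.6% of WT, with a median log2 change of −0.23 (−0.09 in liver), and WT replicate 2 again lay below JNKΔhepa replicate 1. Of the 27 markers 24 had values below 0 and 3 above, with Steap4 the highest at 0.68 (limma adjusted p = 0.186). In limma 1 of the 27 passed, where 0.84% of all genes did. Of the defining markers, decorin (Dcn) averaged 8.47 and 7.70 in WT and JNKΔhepa, Reln 5.69 and 5.09 and Lrat 5.36 and 4.87, while desmin (Des) was dim on all 6 arrays. Ecm1, a secreted matrix protein of stellate cells, was the 1 stellate marker that passed: the 3 WT arrays lay at 7.13, 6.70 and 7.01 and the 3 JNKΔhepa arrays at 6.38, 6.20 and 6.12. It fell 1.63-fold (log2 change −0.71 with SE 0.112, limma adjusted p = 0.01; −0.08 in liver), a call lost without WT replicate 3 (0.0516), JNKΔhepa replicate 2 (0.0564) or 3 (0.0606).

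Several defining markers of lymphocytes, neutrophils and bile duct cells were dim on these arrays. For T and NK cells, Cd3e, Cd3g, Ncr1 and Nkg7 were dim on all 6 arrays. So were Cd79a, Ms4a1 and Pax5 of B cells and S100a8, S100a9, Mmp8 and Ccr2 of neutrophils and monocytes. In these lists 0 of 25, 0 of 18 and 0 of 21 genes passed in limma (1 in each at an unadjusted p under 0.05). The 20 cholangiocyte markers, for the bile duct epithelium, gave sums of 528.3 to 730.9 in WT and 513.7 to 687.9 in JNKΔhepa, and Krt7, Krt19 and Epcam were dim throughout. Sox9, a defining marker that was not dim, averaged 5.90 in WT and 5.95 in JNKΔhepa. The log2 changes of the 20 ran from −1.09 to 1.16 with a median of 0.002, 11 above 0 and 9 below. Among the 20, 1 passed, where 0.84% of all genes did. This was Tm4sf4, a tetraspanin-like membrane protein, which read 8.66, 8.13 and 8.77 in WT against 7.72, 7.23 and 7.36 in JNKΔhepa. It fell 2.12-fold (SE 0.18, limma adjusted p = 0.0135), a call lost without WT replicate 1 (0.0725), 3 (0.0646), JNKΔhepa replicate 2 (0.0706) or 3 (0.068).

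Of 20 measured dendritic cell and MHC class II genes, which present antigen on macrophages, dendritic and B cells, Cd74 was the 1 that passed, where 0.84% of all genes did. The summed level of the list, in which the brightest genes weigh most, was 1243 to 1670 in WT and 1416 to 1471 in JNKΔhepa, with overlap. The JNKΔhepa mean of the sums was 98.1% of WT. The mean log2 level of the list was 3.989, 3.768 and 3.855 on WT arrays 1 to 3. On JNKΔhepa arrays 1 to 3 it was 3.693, 3.544 and 3.575, without overlap. The median log2 change was −0.07 (−0.08 in liver), with 15 members below 0 and 5 above. For the invariant chain gene Cd74, WT arrays 1 to 3 gave 6.89, 6.12 and 6.54, and JNKΔhepa arrays 1 to 3 gave 5.47, 4.65 and 4.52. It fell 3.11-fold (log2 change −1.64 with SE 0.259, limma adjusted p = 0.01), and its log2 change in liver was −0.27. H2-Ab1 had a log2 change of −1.31 and H2-Aa of −1.15 (limma adjusted p = 0.0917 and 0.0668), and neither passed. The dendritic cell genes Itgax and Flt3 were dim on all 6 arrays. The Cd74 call was lost without WT replicate 1 (0.0566), 3 (0.0516), JNKΔhepa replicate 2 (0.0599) or 3 (0.0606).

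**Figure D1:**
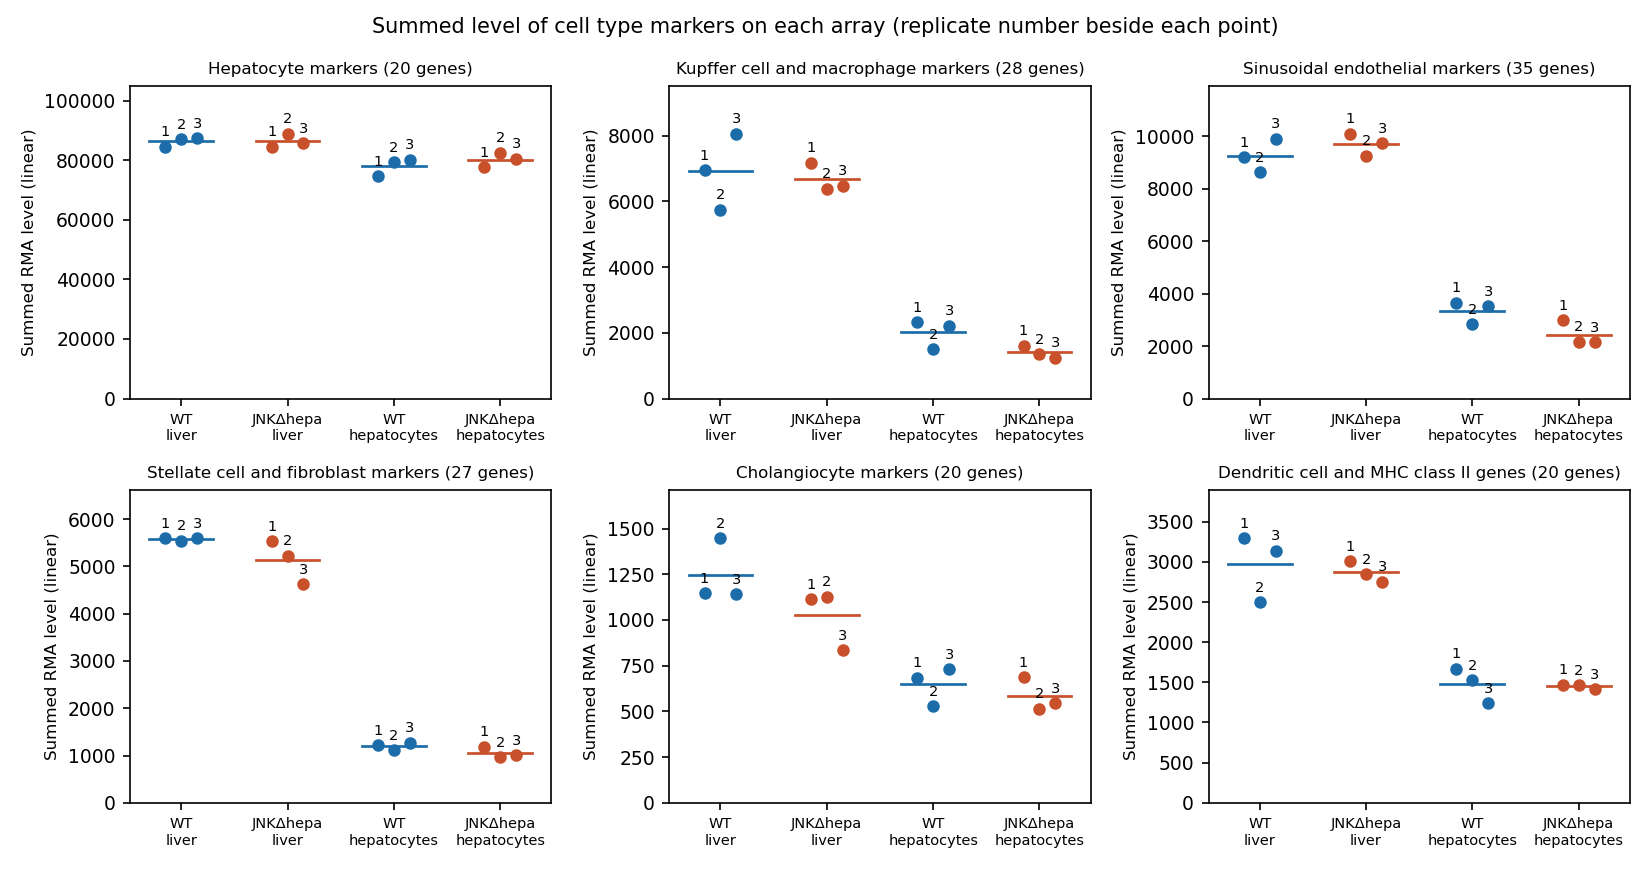
Summed RMA level (linear scale, y axis from 0) of 6 cell type marker lists on each array, in liver and in hepatocytes of WT (blue) and JNKΔhepa (orange) mice, with replicate numbers beside the points and the group mean as a bar. The Kupffer and endothelial sums of hepatocytes overlap between the genotypes in WT replicate 2 and JNKΔhepa replicate 1, and the hepatocyte marker sum of JNKΔhepa hepatocytes is 103% of WT.

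Across all genes, 158 of 18820 (0.84%) differed between JNKΔhepa and WT hepatocytes, 69 higher (0.367%) and 89 lower (0.473%). Of these, 119 changed at least 1.5-fold and 40 at least 2-fold, 15 up and 25 down. An unadjusted p under 0.05 was reached by 2363 genes (12.6%). WT and JNKΔhepa arrays did not overlap in 2762 genes (14.7%), 1385 of them higher (7.36%) and 1377 lower (7.32%).

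How many genes passed depended on single arrays, and on the same arrays that stood apart in the marker sums. Leaving out WT replicate 2, the WT array with the least Kupffer, endothelial and stellate signal, raised the count from 158 to 387. Without JNKΔhepa replicate 1, the JNKΔhepa array with the most of each, it was 315. Without WT replicate 1 or 3 it was 73 or 80, and without JNKΔhepa replicate 2 or 3 it was 63 or 61. Among the 89 lower genes, 32 (36.0%) read lowest in WT on replicate 2 and highest in JNKΔhepa on replicate 1, the order of the marker sums, against 14.9% of all genes. Among the 69 higher genes 3 (4.35%) had that order, and 19 (27.5%) had the opposite order, against 10.6% of all genes.

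**Figure D2:**
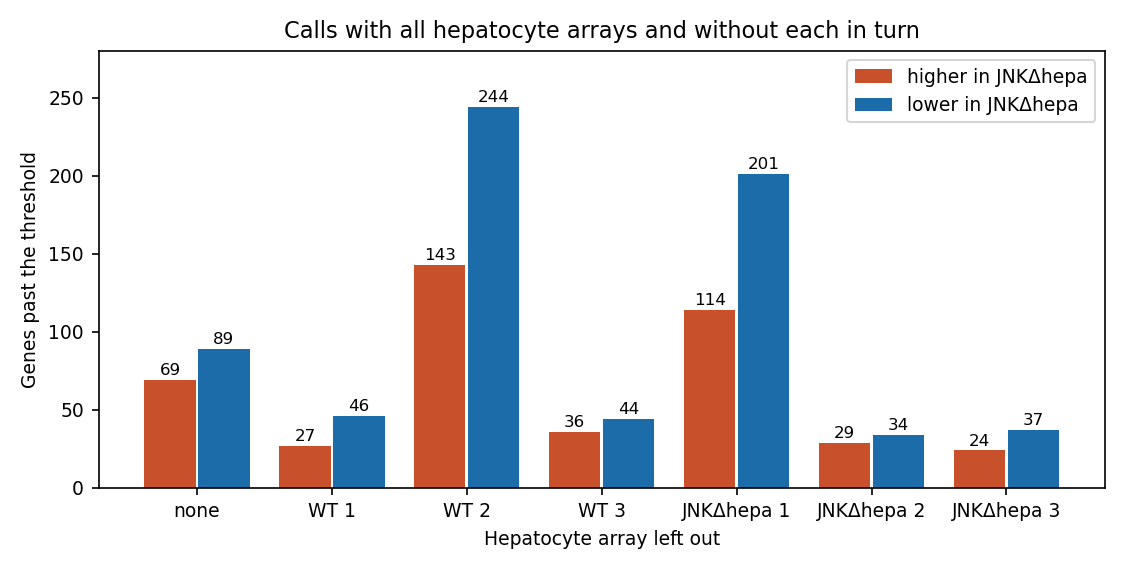
Number of genes past the limma threshold (y axis) that were higher (orange) or lower (blue) in JNKΔhepa hepatocytes with all arrays and without each of the 6 arrays in turn. Counts are largest without WT replicate 2 (143 and 244) and JNKΔhepa replicate 1 (114 and 201).

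A set of 46 genes (0.244%), 21 higher and 25 lower, passed with all arrays and without each of the 6, and is called stable here. With the mean level of the 89 distinct Kupffer, endothelial and stellate markers on each array as a covariate, all 158 genes kept their sign. The median log2 change of the lower genes went from −0.764 to −0.6 and that of the higher genes from 0.733 to 0.584. The median SE of all genes rose from 0.112 to 0.175, and 38 genes passed, 14 higher and 24 lower. Of the 158, 17 were among them, and 16 of the 46 stable genes. The covariate was chosen after these data were seen and is itself partly aligned with genotype.

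The largest stable increases began with Gdpd3, a glycerophosphodiester phosphodiesterase that releases lysophospholipids: the values were 3.32, 2.82 and 2.61 on the WT arrays against 6.10, 5.77 and 5.86 on the JNKΔhepa arrays. It rose at least 7.98-fold (log2 change 3.00 with SE 0.388, limma adjusted p = 0.00238). All JNKΔhepa arrays lay over 2 log2 units above all WT arrays. Of 7 glycerophosphodiester phosphodiesterases measured, Gdpd3 was the 1 that passed, where 0.84% of all genes did, and the log2 changes ran from −0.38 to 3.00. For Cox6b2, a cytochrome c oxidase subunit isoform known from testis, the 3 WT arrays lay at 3.42, 3.96 and 3.11 and the 3 JNKΔhepa arrays at 5.61, 5.29 and 5.35. It rose at least 3.78-fold (SE 0.174, limma adjusted p = 0.000181) and was the 1 of 63 respiratory chain genes that passed, where 0.84% of all genes did. Its JNKΔhepa arrays lay above all WT arrays, as the selection required, and replicate 2 was the highest WT array.

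Apoa4, an apolipoprotein of triglyceride-rich particles, was a bright gene that rose: WT arrays 1 to 3 gave 9.71, 9.35 and 9.37, and JNKΔhepa arrays 1 to 3 gave 11.03, 10.69 and 10.79. The increase was 2.57-fold (log2 change 1.36 with SE 0.156, limma adjusted p = 0.00108), and a second probe set gave 0.98. Hsd3b2, a 3-beta-hydroxysteroid dehydrogenase whose family has near-identical copies that a probe set may not separate, read 7.32, 7.47 and 7.43 in WT against 8.53, 8.89 and 8.87 in JNKΔhepa. It rose 2.56-fold (SE 0.189, limma adjusted p = 0.00434). For Kdm2b, a histone demethylase that recruits Polycomb complexes to CpG islands, the values were 4.02, 4.25 and 4.17 on the WT arrays against 5.39, 5.42 and 5.29 on the JNKΔhepa arrays. It rose 2.33-fold (SE 0.099, limma adjusted p = 6.99e-05), and the arrays within each genotype lay close together.

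The remaining large increases follow, whose arrays do not overlap between the genotypes because the selection required it. Sorl1, a sorting receptor, rose at least 2.42-fold (limma adjusted p = 0.00182). B3galt1, a glycan-building galactosyltransferase, rose 2.3-fold (adjusted p = 0.0014). Pebp1, an inhibitor of Raf signalling, rose 1.85-fold (0.00095), with 0.85 and 0.63 for its other probe sets. The thiopurine methyltransferase gene Tpmt rose 1.81-fold (0.00066) and Bckdhb, a subunit of the branched-chain ketoacid dehydrogenase, 1.78-fold (0.00481). Tnfrsf1b, the TNF receptor TNFR2, rose 1.71-fold (0.0014) and Sec23ip, a gene of vesicle export from the endoplasmic reticulum, 1.69-fold (0.0079).

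**Figure D3:**
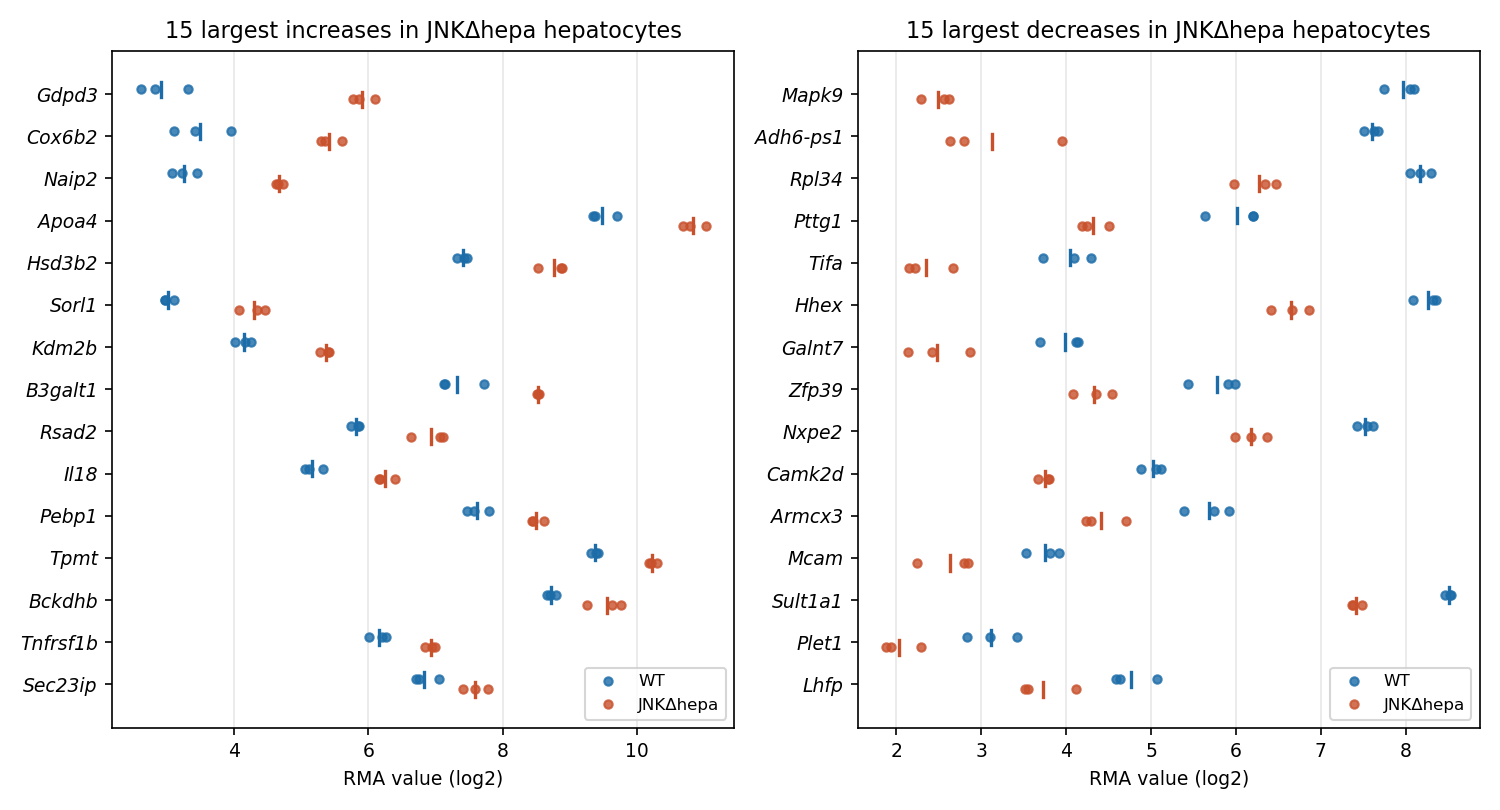
RMA values (log2, x axis) of the 15 largest stable increases and the 15 largest stable decreases on each hepatocyte array, WT in blue and JNKΔhepa in orange, with the mean of each genotype as a bar. The selection of the 30 genes required that all JNKΔhepa arrays lie on one side of all WT arrays.

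The largest decrease after Mapk9 was in Adh6-ps1, an alcohol dehydrogenase pseudogene: the 3 WT arrays lay at 7.51, 7.67 and 7.63 and the 3 JNKΔhepa arrays at 3.95, 2.80 and 2.64. It fell at least 22.2-fold (log2 change −4.47 with SE 0.363, limma adjusted p = 6.99e-05). JNKΔhepa replicate 1 read over 1 log2 unit above the other two, and still far below WT. Of 35 alcohol, aldehyde and retinol dehydrogenases it was the 1 that passed, where 0.84% of all genes did (median log2 change −0.01). For Rpl34, a large-subunit ribosomal protein gene with many processed copies in the genome, WT arrays 1 to 3 gave 8.17, 8.04 and 8.30, and JNKΔhepa arrays 1 to 3 gave 6.48, 6.35 and 5.98. It fell 3.74-fold (log2 change −1.90 with SE 0.147, limma adjusted p = 6.99e-05). Of 68 cytosolic ribosomal protein genes it was the 1 past the threshold, where 0.84% of all genes were, with a list median of −0.0007.

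Pttg1, which encodes securin, the guard of sister chromatid separation, also fell: the values were 5.64, 6.20 and 6.20 on the WT arrays against 4.19, 4.51 and 4.24 on the JNKΔhepa arrays. The decrease was 3.25-fold (log2 change −1.70 with SE 0.172, limma adjusted p = 0.000458), with WT replicate 1 the lowest WT array. It was the 1 of 49 cell cycle genes that passed, where 0.84% of all genes did. Hhex, a homeobox transcription factor of liver and bile duct development, read 8.36, 8.09 and 8.32 in WT against 6.66, 6.42 and 6.86 in JNKΔhepa. It fell 3.05-fold (log2 change −1.61 with SE 0.239, limma adjusted p = 0.00655), while its log2 change in whole liver was 0.17. The difference between the tissues for Hhex did not pass (adjusted p = 0.272).

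The other large stable decreases were in genes of varied roles. Camk2d, a calcium/calmodulin-dependent kinase subunit, fell 2.41-fold (limma adjusted p = 6.99e-05). The zinc finger gene Zfp39 fell 2.74-fold (0.0014), Galnt7, which starts O-linked glycans, at least 2.84-fold (0.00244), and Nxpe2 2.54-fold (0.00018). Armcx3, a mitochondrial armadillo protein gene, fell 2.41-fold (0.00139), with changes of −1.23 and −0.98 for its other probe sets. Mcam, an adhesion molecule of endothelial cells and pericytes, fell at least 2.18-fold (0.00464), and Lhfp 2.05-fold (0.00685). In Zfp39, Armcx3, Mcam and Lhfp the arrays had the order of the marker sums within each genotype. With the covariate their log2 changes were −0.96, −0.74, −0.72 and −0.52, and none of the 4 passed with it. In whole liver their log2 changes were −1.26, −0.45, −1.06 and −0.18. There Zfp39 and Mcam passed (limma adjusted p = 0.0041 and 0.007), and Armcx3 and Lhfp did not (0.219 and 0.728). Mapk9 and Rpl34 also had the order of the marker sums and did pass with the covariate. Their log2 changes with it were −5.16 and −1.6 (limma adjusted p = 9.2e-07 and 0.0221). The order alone therefore did not tell which calls passed with the covariate.

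Among 37 measured AP-1 and immediate early genes, Myc rose and Jun and Ccn1 fell, with a list median of −0.05. These were 1 higher and 2 lower calls, where 0.367% and 0.473% of all genes rose and fell. For Jun, the AP-1 subunit that JNK phosphorylates and whose gene AP-1 itself activates, the 3 WT arrays lay at 8.74, 8.36 and 8.86 and the 3 JNKΔhepa arrays at 7.98, 7.66 and 7.81. It fell 1.79-fold (log2 change −0.84 with SE 0.14, limma adjusted p = 0.0135). The genotypes did not overlap, and the arrays had the order of the marker sums. Ccn1, a matricellular signal induced by growth factors, read 6.30, 5.93 and 6.23 in WT against 4.84, 5.18 and 5.48 in JNKΔhepa (log2 change −0.98 with SE 0.18, limma adjusted p = 0.0233). The Jun call was lost without WT replicate 1 (0.0704), 3 (0.0614), JNKΔhepa replicate 2 (0.0706) or 3 (0.0611), and the Ccn1 call without WT replicate 1 (0.108), 3 (0.0918) or JNKΔhepa replicate 2 (0.087). With the marker covariate the log2 change was −0.44 for Jun and −1.09 for Ccn1, and neither passed. In whole liver Jun also fell and passed (log2 change −0.74, limma adjusted p = 0.026), while Ccn1 had 0.57 and did not pass (0.189).

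The Jun promoter is shown because it is the textbook AP-1 target whose transcript fell. The RefSeq sequence (GRCm38.p6, chr4:95052223-95052322, minus strand) covers the 100 bases before the annotated start. The capitals mark the 1 match to the CRE-like site TGACNTCA (TGANGTCA on the other strand), at positions −45 to −38 from the start.
Jun: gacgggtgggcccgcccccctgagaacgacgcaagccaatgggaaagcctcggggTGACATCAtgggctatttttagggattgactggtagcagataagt
In the 250 bases before the start, this site was found in 1135 of 14749 tested genes with a promoter sequence (7.7%), in 8 of 71 lower genes (11.3%) and in 3 of 58 higher genes (5.17%). The AP-1 site TGANTCA, which reads alike on both strands, was found in 6.98% of all genes, 4 of 71 lower genes (5.63%) and 3 of 58 higher genes (5.17%). A match describes letters in this window and is no evidence of binding.

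Myc, the transcription factor that drives growth and ribosome production, rose in hepatocytes: WT arrays 1 to 3 gave 5.80, 5.40 and 5.93, and JNKΔhepa arrays 1 to 3 gave 6.89, 7.46 and 7.59. The increase was 3.04-fold (log2 change 1.60 with SE 0.262, limma adjusted p = 0.0125). All JNKΔhepa arrays lay above all WT arrays. In whole liver the log2 change was −0.89 (adjusted p = 0.151), and the difference between the tissues, 2.49, did not pass (adjusted p = 0.073). Of 40 genes of the Myc network and ribosome biogenesis, 3 rose and 0 fell, where 0.367% and 0.473% of all genes did. Non-overlapping arrays were higher in 12 (7.36% of all genes) and lower in 0, and the median log2 change was 0.14 (0.08 in liver). The others past the threshold were the nucleolar genes Wdr43 (0.46 with SE 0.0836, limma adjusted p = 0.0227) and Gnl3 (0.63 with SE 0.115, adjusted p = 0.0233). The Myc call was lost without JNKΔhepa replicate 2 (0.0656) or 3 (0.068), the Wdr43 call without WT replicate 1 (0.085), 3 (0.0824), JNKΔhepa replicate 2 (0.0994) or 3 (0.0611), and the Gnl3 call without WT replicate 1 (0.0973), JNKΔhepa replicate 2 (0.0994) or 3 (0.0826).

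Socs2, a feedback inhibitor induced by growth hormone through STAT5, had the second largest increase of any named gene. For Socs2 the values were 7.14, 6.91 and 6.77 on the WT arrays against 9.53, 8.95 and 8.97 on the JNKΔhepa arrays. It rose 4.64-fold (log2 change 2.21 with SE 0.4, limma adjusted p = 0.022), with no overlap, and a second probe set gave 1.86. Its log2 change in liver was −0.44, and the difference between the tissues did not pass (adjusted p = 0.35). It was the 1 of 19 growth hormone and STAT5 genes that passed, where 0.84% of all genes did (median 0.09). Of 21 male-biased liver genes 0 passed in limma (2 at an unadjusted p under 0.05) and the median was 0.02, against −0.39 in whole liver. Of 21 female-biased genes, Cyp17a1 was the 1 that passed, and it fell, where 0.473% of all genes did. The log2 changes of that list ran from −2.62 to 1.21, with a median of 0.03 (0.19 in liver). The Socs2 call was lost without WT replicate 1 (0.0707), 3 (0.0902), JNKΔhepa replicate 2 (0.0683) or 3 (0.0687).

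Interferon-stimulated genes, an antiviral program, held the most calls of any list. Of 46 measured, 7 rose and 0 fell, against 0.367% and 0.473% of all genes, with a median log2 change of 0.37 (0.28 in liver). An unadjusted p under 0.05 was reached by 25 higher and 5 lower genes, against 12.6% of all genes in both directions. Non-overlapping arrays were higher in 17 and lower in 7 of the 46, against 7.36% and 7.32% of all genes. Rsad2 (viperin), which makes a chain-terminating nucleotide, was the stable one: the 3 WT arrays lay at 5.75, 5.86 and 5.85 and the 3 JNKΔhepa arrays at 6.64, 7.07 and 7.11. It rose 2.17-fold (log2 change 1.12 with SE 0.135, limma adjusted p = 0.0014), and JNKΔhepa replicate 1 was the lowest JNKΔhepa array. For Ifit1, which binds viral RNA, WT arrays 1 to 3 gave 5.22, 4.68 and 5.41, and JNKΔhepa arrays 1 to 3 gave 5.90, 6.83 and 6.64. It rose 2.55-fold (log2 change 1.35 with SE 0.265, limma adjusted p = 0.0323), with the same array lowest and no overlap.

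The other five were Cmpk2, the kinase gene beside Rsad2 (0.76 with SE 0.139, limma adjusted p = 0.0232), Dhx58, a regulator of RNA sensing (0.86, 0.0333), Rtp4 (0.74, 0.0233), Ifi44l (0.68, 0.0227, dim in both genotypes) and the apoptosis-related Xaf1 (0.53, 0.0141). Ifit1 and Dhx58 fell outside the naming rule and were named after their values were seen. The calls were lost without 3 or more arrays each: for Xaf1 WT replicate 3 (0.0581), JNKΔhepa replicate 2 (0.0703) or 3 (0.0606), for Ifi44l WT replicate 3 (0.0894), JNKΔhepa replicate 2 (0.0994) or 3 (0.0606), for Cmpk2 WT replicate 1 (0.0759), 3 (0.0746), JNKΔhepa replicate 2 (0.106) or 3 (0.109), for Rtp4 WT replicate 1 (0.0921), 3 (0.092), JNKΔhepa replicate 2 (0.112) or 3 (0.114), for Ifit1 WT replicate 1 (0.0996), 2 (0.0595), 3 (0.0581), JNKΔhepa replicate 2 (0.14) or 3 (0.14), and for Dhx58 WT replicate 1 (0.122), 2 (0.0511), 3 (0.0902), JNKΔhepa replicate 2 (0.142) or 3 (0.129). With the marker covariate the log2 changes were 0.80 for Rsad2, 1.20 for Ifit1 and 0.39 for Rtp4, and none of the 7 calls, the stable Rsad2 included, passed with it (limma adjusted p from 0.171 for Rsad2 to 0.723 for Dhx58).

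Of 33 measured interferon-stimulated genes with a promoter sequence, 15 (45.5%) held the core of the interferon-stimulated response element, GAAA, any 2 bases and GAAA again (TTTC and TTTC on the other strand), in the 250 bases before the start, against 3.42% of all genes. Of the 5 that rose and had a sequence, 2 did, and they are shown with that core in capitals (RefSeq, GRCm38.p6). Ifit1 lies at chr19:34640755-34640854 on the plus strand, with cores between positions −104 and −76 from the start, and Rsad2 at chr12:26456503-26456602 on the minus strand, with a core at positions −120 to −111.
Ifit1: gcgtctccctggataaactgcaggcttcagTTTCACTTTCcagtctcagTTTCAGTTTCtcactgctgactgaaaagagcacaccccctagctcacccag
Rsad2: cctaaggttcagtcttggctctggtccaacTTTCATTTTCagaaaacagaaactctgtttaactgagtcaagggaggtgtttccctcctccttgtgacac
Among all 58 higher genes with a sequence 4 (6.9%) had the core, and 1 of 71 lower genes (1.41%).

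**Figure D4:**
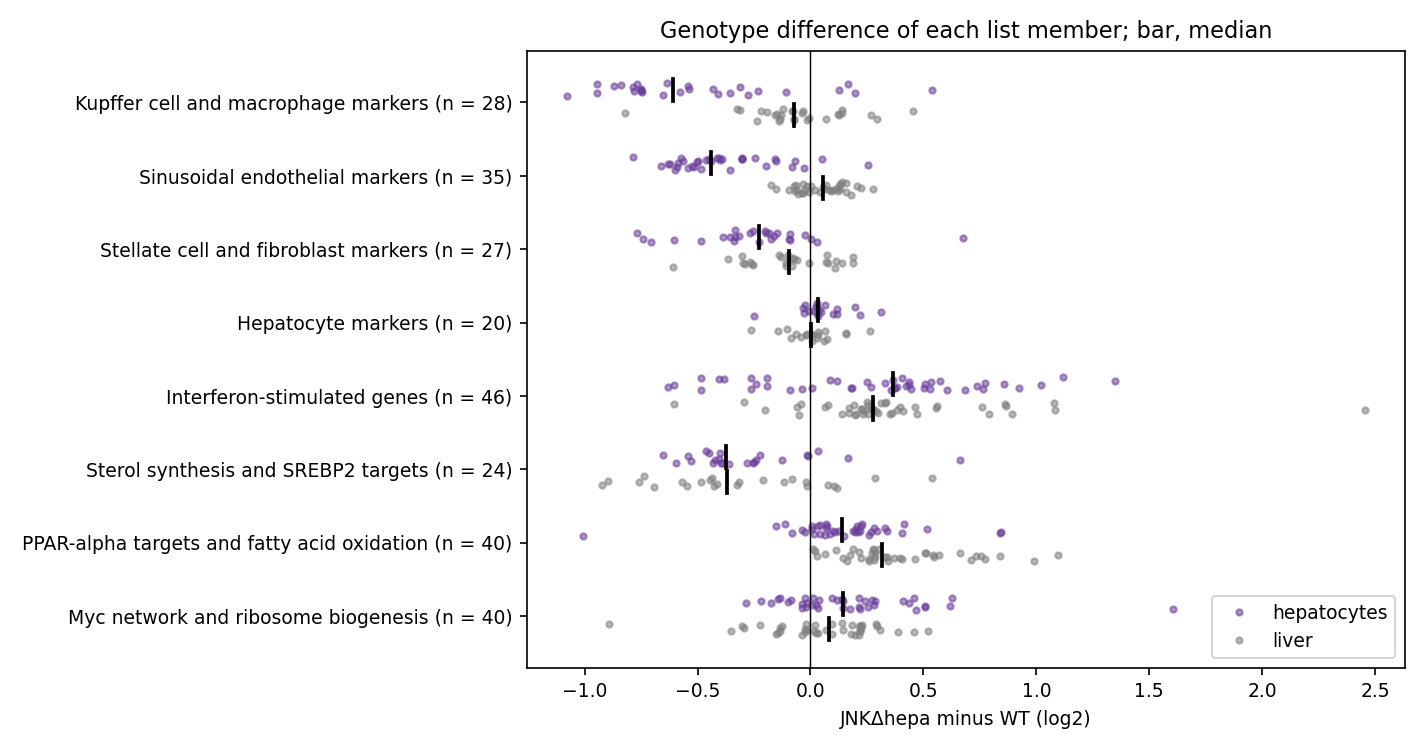
Log2 difference of JNKΔhepa minus WT (x axis) of every measured member of 8 gene lists in hepatocytes (purple) and whole liver (grey), 1 point a gene, with the median as a black bar. Kupffer, endothelial and stellate markers have medians of −0.61, −0.44 and −0.23 in hepatocytes and −0.07, 0.06 and −0.09 in liver, and interferon-stimulated genes 0.37 and 0.28.

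Inflammatory genes were split. Il18, the cytokine that inflammasomes release, rose: the values were 5.11, 5.06 and 5.32 on the WT arrays against 6.18, 6.40 and 6.16 on the JNKΔhepa arrays. The increase was 2.12-fold (log2 change 1.08 with SE 0.114, limma adjusted p = 0.000597). Its arrays do not overlap between the genotypes because the selection of the largest increases required it. For Naip2, an inflammasome receptor of bacterial proteins whose near-identical copies a probe set may not separate, the 3 WT arrays lay at 3.45, 3.08 and 3.23 and the 3 JNKΔhepa arrays at 4.62, 4.73 and 4.66. It rose at least 2.68-fold (SE 0.198, limma adjusted p = 0.00434). The 2 were the ones that passed among 22 inflammasome and NAIP genes (median −0.02), where 0.84% of all genes did. Tifa, an adaptor from TRAF6 to NF-kB, fell: WT arrays 1 to 3 gave 4.10, 3.73 and 4.29, and JNKΔhepa arrays 1 to 3 gave 2.67, 2.15 and 2.22. The decrease was at least 3.23-fold (log2 change −1.69 with SE 0.196, limma adjusted p = 0.00117), and its arrays had the order of the marker sums (−1.13 with the covariate, adjusted p = 0.134). In whole liver Tifa also fell and passed (log2 change −1.23, limma adjusted p = 0.0101). Tnip1, which restrains NF-kB, had a log2 change of 0.54 (adjusted p = 0.0254), lost without WT replicate 3 (0.0824), JNKΔhepa replicate 1 (0.0562), 2 (0.0513) or 3 (0.0902). In all, 2 of 51 cytokine, chemokine and NF-kB genes rose and 1 fell, where 0.367% and 0.473% of all genes did. Of the 51, 21 were dim on all 6 arrays.

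Few genes of lipid and energy metabolism passed, while the PPAR-alpha list leaned upward. Ppargc1a, the coactivator of mitochondrial and gluconeogenic genes, fell: the values were 7.46, 7.15 and 7.57 on the WT arrays against 6.45, 6.23 and 6.47 on the JNKΔhepa arrays. The decrease was 2.01-fold (log2 change −1.01 with SE 0.157, limma adjusted p = 0.00919), a second probe set gave −1.005, and the change in liver was 0.01. For Fgf21, a fasting hormone and PPAR-alpha target, the 3 WT arrays lay at 3.99, 3.74 and 3.85 and the 3 JNKΔhepa arrays at 4.58, 4.92 and 4.61. It rose 1.8-fold (log2 change 0.85 with SE 0.156, limma adjusted p = 0.0233). Neither gene overlapped between the genotypes. Of 40 PPAR-alpha targets and fatty acid oxidation genes these 2 passed, where 0.84% of all genes did. In 34 of the 40 the value lay above 0, and the median was 0.14, against 0.32 in liver. Non-overlapping arrays were higher in 11 and lower in 1 of the 40, against 7.36% and 7.32% of all genes. The Ppargc1a call was lost without WT replicate 3 (0.0518) or JNKΔhepa replicate 2 (0.0564), and the Fgf21 call without WT replicate 1 (0.06), 3 (0.0866), JNKΔhepa replicate 2 (0.112) or 3 (0.068).

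Sterol synthesis genes, controlled by SREBP2, lay lower without a call. Of 24 measured, 0 passed in limma (10 at an unadjusted p under 0.05, all lower), 21 had values below 0 and 15 had non-overlapping lower arrays, against 7.32% of all genes. The median log2 change was −0.38 in hepatocytes and −0.37 in liver. Nsdhl, a sterol demethylation enzyme, had the smallest p: WT arrays 1 to 3 gave 10.06, 10.01 and 9.98, and JNKΔhepa arrays 1 to 3 gave 9.71, 9.64 and 9.52 (log2 change −0.39 with SE 0.0982, limma adjusted p = 0.0917). Apoa4, above, was the 1 call among 39 fatty acid and triglyceride genes (median −0.04), where 0.84% of all genes passed. Non-overlapping arrays were higher in 7 and lower in 8 of the 39, against 7.36% and 7.32% of all genes. In steroid metabolism, 27 genes measured, Hsd3b2 rose and Cyp17a1 fell, where 0.367% and 0.473% of all genes did. For Cyp17a1, a steroid hydroxylase, the values were 7.79, 8.47 and 7.51 on the WT arrays against 6.39, 5.83 and 5.77 on the JNKΔhepa arrays. The decrease was 3.81-fold (SE 0.402, limma adjusted p = 0.0444), with WT replicate 2 the highest array, and the call was lost without WT replicate 1 (0.122), 2 (0.0809), 3 (0.0824), JNKΔhepa replicate 2 (0.152) or 3 (0.169).

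Alas1, the rate-limiting enzyme of heme synthesis, rose: the 3 WT arrays lay at 9.09, 9.33 and 9.15 and the 3 JNKΔhepa arrays at 10.08, 10.25 and 10.34. The increase was 2.05-fold (log2 change 1.03 with SE 0.192, limma adjusted p = 0.0239), while the log2 change in liver was −0.52 (difference between tissues, adjusted p = 0.182). Slc39a14, a zinc and iron importer, changed by 0.46 on the log2 scale (SE 0.0792, adjusted p = 0.0154). These 2 rose among 33 genes of heme and metal handling (median 0.16), where 0.367% of all genes did. The summed level of 11 erythroid markers, of cells that also make heme, was 445.4 to 503.5 in WT and 549.9 to 575.6 in JNKΔhepa, without overlap. A linear sum weighs the brightest genes most, and the mean log2 level of the 11 was 3.75 in both genotypes. The erythroid heme enzyme Alas2 averaged 7.96 in WT and 8.34 in JNKΔhepa (log2 change 0.38, limma adjusted p = 0.415). Of the 11 markers 6 were dim on all 6 arrays. The part of erythroid cells in the Alas1 and Slc39a14 changes was not tested. The Alas1 call was lost without WT replicate 1 (0.108), 3 (0.0918), JNKΔhepa replicate 2 (0.0994) or 3 (0.114), and the Slc39a14 call without WT replicate 1 (0.0733), JNKΔhepa replicate 2 (0.0656) or 3 (0.0705).

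In each list of detoxification and NAD genes 1 member passed, where 0.84% of all genes did. A single call says little about its list. Sult1a1, a sulfotransferase of phenols, read 8.46, 8.52 and 8.54 in WT against 7.38, 7.37 and 7.49 in JNKΔhepa. It fell 2.13-fold (log2 change −1.09 with SE 0.153, limma adjusted p = 0.00434), the 1 call among 65 xenobiotic metabolism genes (median 0.05). Its arrays lay within 0.15 log2 units of one another in each genotype. Gstm2, a glutathione transferase of a family with near-identical copies, fell 1.55-fold (adjusted p = 0.01), the 1 call among 40 NRF2 and glutathione genes (median 0.03), lost without JNKΔhepa replicate 3 (0.0606). Nnmt, which methylates nicotinamide, varied widely within the genotypes: WT arrays 1 to 3 gave 6.96, 7.75 and 6.40, and JNKΔhepa arrays 1 to 3 gave 4.73, 3.64 and 4.13. It fell 7.3-fold (log2 change −2.87 with SE 0.556, limma adjusted p = 0.029), the 1 call among 30 NAD genes (median 0.004), lost without WT replicate 1 (0.108), 2 (0.0572), 3 (0.0581), JNKΔhepa replicate 2 (0.132) or 3 (0.116).

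Cytoskeletal and matrix genes, which rise when hepatocytes lose their differentiated state and are also abundant in non-parenchymal cells, lay lower in JNKΔhepa. Of 49 cytoskeleton and dedifferentiation genes 3 fell and 0 rose, where 0.473% and 0.367% of all genes did. In 38 the value lay below 0, and 17 had non-overlapping lower arrays, against 7.32% of all genes (median −0.13, and −0.07 in liver). For Anxa5, a membrane-binding annexin, the values were 10.15, 9.92 and 10.06 on the WT arrays against 9.34, 9.17 and 8.83 on the JNKΔhepa arrays. It fell 1.91-fold (log2 change −0.93 with SE 0.128, limma adjusted p = 0.00399). Anxa6 read 8.77, 8.60 and 8.93 in WT against 8.07, 7.93 and 7.90 in JNKΔhepa and fell 1.73-fold (adjusted p = 0.0014), with −0.13 on a second, dim probe set. Both annexins are stable, and their arrays had the order of the marker sums. With the covariate the log2 changes were −0.61 and −0.56, and neither passed. In whole liver they were −0.55 for Anxa5 and −0.50 for Anxa6 (limma adjusted p = 0.0688 and 0.0292), and Anxa6 passed.

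Of 45 extracellular matrix genes 2 fell, Ecm1 and biglycan (Bgn), where 0.473% of all genes did. The list had a median of −0.13 (−0.06 in liver), and 19 of the 45 were dim on all 6 arrays. For Bgn, a matrix proteoglycan of mesenchymal cells, the 3 WT arrays lay at 7.39, 7.27 and 7.47 and the 3 JNKΔhepa arrays at 6.96, 6.41 and 6.37. It fell 1.74-fold (log2 change −0.80 with SE 0.141, limma adjusted p = 0.0198), a call lost without WT replicate 1 (0.0789), 3 (0.0848), JNKΔhepa replicate 2 (0.0976) or 3 (0.0879). The arrays of Bgn and Ecm1 had the order of the marker sums. With the covariate the log2 change of Bgn was −0.36, that of Ecm1 −0.35, that of C1qb −0.53, that of Cd74 −0.74 and that of Tm4sf4 −0.49, and none of the 5 passed with it. Ecm1 and C1qb are among the 89 markers averaged in the covariate, so their smaller changes with it are in part built in.

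With the marker covariate several stable calls kept log2 changes close to those without it, or larger, and others did not. The log2 change was −5.16 for Mapk9, −1.98 for Pttg1, −1.42 for Nxpe2, −1.94 for Galnt7, 1.65 for Apoa4, 1.16 for Kdm2b, 1.11 for Il18 and 0.89 for Tpmt, and all passed (limma adjusted p up to 0.0452). Gdpd3 had 3.26 (adjusted p = 0.0712), Naip2 1.53 (0.103), Sult1a1 −1.14 (0.131) and Hhex −1.46 (0.236), which did not pass. Other stable increases became smaller and did not pass. They went from 1.20 to 0.85 for B3galt1 (limma adjusted p = 0.173), 1.27 to 1.00 for Sorl1 (0.188), 1.35 to 1.08 for Hsd3b2 (0.252) and 0.83 to 0.58 for Bckdhb (0.314).

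Whole liver of the same mice, in which all cell types are present, shared a part of these calls. In liver 174 genes passed (0.925%), and 55 passed in both tissues, 34.8% of the hepatocyte calls and 31.6% of the liver calls. Of the 55, 54 had the same direction, and Plet1 was the exception. Of the 46 stable hepatocyte genes 34 passed in liver too. The log2 changes in hepatocytes and liver were 3.00 and 3.07 for Gdpd3, −4.47 and −4.80 for Adh6-ps1, −1.90 and −1.87 for Rpl34, −1.70 and −2.31 for Pttg1, and 1.42 and 1.41 for Naip2.

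The difference between the tissues was tested directly, as the hepatocyte effect minus the liver effect, and passed in 2 genes (0.0106%; 1359 at an unadjusted p under 0.05, 7.22%). Ifi44l, an interferon-induced gene, read 2.57, 2.32 and 2.34 in WT hepatocytes and 2.99, 3.30 and 2.99 in JNKΔhepa hepatocytes, and 2.63, 2.40 and 2.47 in WT liver and 5.18, 4.79 and 4.90 in JNKΔhepa liver. The log2 change was 0.68 in hepatocytes and 2.45 in liver, a difference of −1.77 (SE 0.176, limma adjusted p = 0.00365). Both genotypes hold dim arrays in hepatocytes and WT does in liver, so the sizes of these changes and of their difference are not exact. Plet1, a surface protein of epithelial progenitors, read 3.42, 3.10 and 2.83 in WT against 2.29, 1.93 and 1.88 in JNKΔhepa hepatocytes, most of them dim, against 5.90, 6.10 and 6.03 in WT and 6.90, 6.81 and 6.53 in JNKΔhepa liver. It fell by 1.08 on the log2 scale in hepatocytes and rose by 0.73 in liver, a difference of −1.82 (SE 0.217, limma adjusted p = 0.0147). With dim hepatocyte arrays in both genotypes, the sizes of the hepatocyte change and of the difference are not exact. The groups did not overlap in either tissue. The Plet1 difference was lost without hepatocyte JNKΔhepa replicate 2 (0.0833) or 3 (0.0781), liver JNKΔhepa replicate 1 (0.0743) or 2 (0.0805), or liver WT replicate 1 (0.0564).

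**Figure D5:**
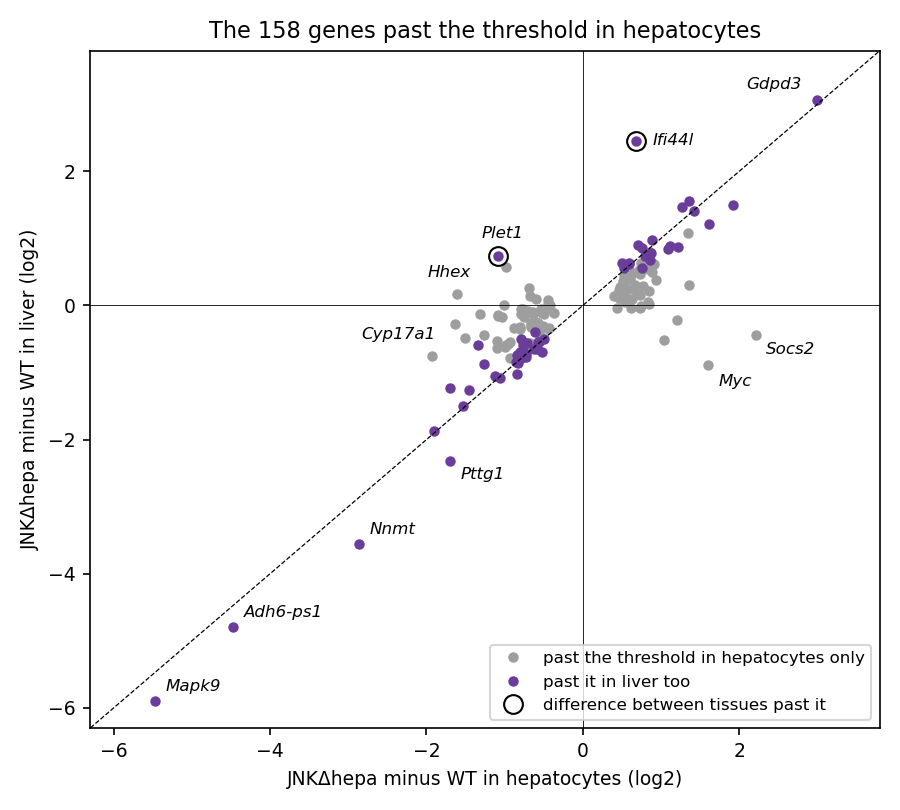
Log2 difference of JNKΔhepa minus WT in hepatocytes (x axis) and in whole liver (y axis) of the 158 genes past the threshold in hepatocytes, with the 55 that also passed in liver in purple, the rest in grey and the 2 whose difference between tissues passed circled. Points on the dashed line have equal changes, and Myc, Socs2 and Hhex lie off it without passing the test of the difference.

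Several called genes lie near Mapk9 itself. Among the 100 tested genes on each side of Mapk9 in RefSeq gene order, 7 of 200 passed in hepatocytes (3.5%, against 0.84% of all genes), 3 higher and 4 lower. They were Pttg1 (−1.70), Atox1, a copper chaperone (−0.85), the complex III assembly factor gene Lyrm7 (−0.80), Anxa6 (−0.79), Timd2, a ferritin receptor (0.59), Tnip1 (0.54) and the predicted gene Gm12250 (1.62). Pttg1 stands 57 tested genes before Mapk9 and Gm12250 96 after it. The Mapk9 null allele is carried by all JNKΔhepa mice and no WT mouse, so linkage to it and genotype cannot be told apart.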

How the data were processed

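RNA of 3 WT and 3 JNKΔhepa hepatocyte samples, and of whole liver from the same mice, was measured on whole-transcript arrays. The authors deposited log2 values made with RMA, per the submitters' processing notes, which give no version. The log base was read from the values. Software, probe-set definition and build: not given in the sources used here. RMA quantile-normalises, so a difference is relative to the array's other probe sets. The number of arrays limits the precision, and 0 columns were left without a sample.

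Of 35556 probe sets, 21218 carry exactly 1 symbol in the platform annotation, 1881 several and 12457 none. Each of 18820 genes was represented by its brightest probe set (mean of 12 arrays), with no filter on dim probe sets. Group means of all 12 arrays were fitted with limma 3.58.1 in R 4.3.3, which was tested on simulated data, and two-sided p-values were adjusted by the Benjamini-Hochberg method (threshold 0.05, residual degrees of freedom 8, prior 4.76). Each array comes from its own mouse within a tissue. The mouse numbers in the labels pair liver and hepatocyte samples of one animal (correlation of deviations −0.0133 to 0.0982, consensus 0.0487). WT and JNKΔhepa numbers name different mice.

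The named genes are Mapk8 and Mapk9, the 15 largest stable increases and decreases whose arrays did not overlap, up to 5 called members of each of 50 gene lists (or the member with the smallest p), and defining markers. Predicted genes, clones, microRNAs, small nucleolar RNAs and olfactory or vomeronasal receptors were left out of the largest changes, and genes named outside the rule are Ifit1, Dhx58, neighbours of Mapk9, and list members given as examples. The members, lists and naming rule were chosen with earlier results of these data known, and the rule on dim arrays and the marker covariate after the values were seen. Promoters of 14749 genes came from a RefSeq table (GRCm38.p6), which also gave the gene order. Other settings were the 6 arrays alone, blocks, a second normalisation, centring, a filter, other probe set rules, another prior, array weights and leaving out each array. Figures used Python 3.11.15 and matplotlib 3.10.9.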

Additional observations from a re-analysis of the deposited data

Results flagged for a closer look

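The genotype effect differed between hepatocytes and whole liver by the interaction test in 2 genes, Ifi44l (−1.77 on the log2 scale) and Plet1 (−1.82). Both read dim on most hepatocyte arrays, so these sizes are not exact, and their values stand in the account of the liver comparison. Among 14338 probe sets without exactly 1 gene symbol, which no comparison above uses, 40 passed the limma threshold between the genotypes in hepatocytes, 13 higher and 27 lower in JNKΔhepa, with log2 changes from −1.96 to 2.05. Their genes are not named here.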

How the results depend on the processing

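The count of 158 genes was 77 (32 higher, 45 lower) in a fit of the 6 hepatocyte arrays alone, with 64 of the 158 among them, and 38 (14 higher, 24 lower) with the marker covariate, which was added after the data were seen. Leaving out 1 array gave 61 to 387 genes, 24 to 143 higher and 34 to 244 lower, and the arrays behind these values are named above. Among genes above the median of all probe sets 226 passed, 108 of them higher. The other settings gave 135 to 201 genes, from array weights to an intensity trend with a robust prior, with 72 higher and 103 lower after a second quantile normalisation and 93 higher and 84 lower after centring. The replicate block, with same-numbered WT and JNKΔhepa hepatocyte arrays as pairs, gave 138 genes, 107 of them among the 158. These numbers name different mice and do not pair them (correlations of deviations 0.112, 0.0808 and −0.0232), and all 46 stable genes passed in it. Mapk9 kept its call throughout, and Mapk8 lost it with the covariate (−0.564, limma adjusted p = 0.134), whose larger SE is given above.

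The tissue difference, 2 genes, was 2 with the mouse as a block (the replicate block for this contrast), 0 among genes above the median of all probe sets (882 at an unadjusted p under 0.05; both genes are removed there), 4 with array weights, 1 over all probe sets and 1 to 7 without single arrays. With the covariate 4 genes that had not passed changed sign: Cdh1 (0.00931), F13a1 (0.00546), Gpm6a (−0.0619) and Mest (0.0312). Dim signal limits the size of changes written with "at least" or as not exact.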

Other observations

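Hepatocyte programs outside the comparisons above gave no call. Of 30 acute phase genes, the plasma proteins that rise with inflammation, 0 passed in limma (5 at an unadjusted p under 0.05), but 26 had values above 0 and 14 had non-overlapping higher arrays, against 7.36% of all genes. Their median log2 change was 0.16 in hepatocytes and −0.03 in liver. Steap4, a metalloreductase that is also on the stellate marker list, had the smallest p (0.68, SE 0.215, limma adjusted p = 0.186). Of 37 bile acid genes 0 passed (3 at an unadjusted p under 0.05, median 0.05), and the sterol exporter gene Abcg8 had the smallest p (0.48, adjusted p = 0.189). Zonation lists read near 0: the median was −0.05 over 29 pericentral and 0.03 over 27 periportal genes, with 0 calls in each (3 and 1 at an unadjusted p under 0.05). Lgr5, a Wnt target of pericentral cells, had −0.88 (adjusted p = 0.0872) and the junction gene Cdh1 −0.56 (0.26).

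Stress and death programs gave no call in limma either. The medians were 0.02 for 27 unfolded protein response genes, −0.07 for 18 heat shock genes, 0.02 for 32 apoptosis and necroptosis genes, 0.004 for 25 p53 targets and 0.01 for 20 clock genes, with 3, 4, 5, 3 and 3 genes at an unadjusted p under 0.05. For Derl3, an endoplasmic reticulum degradation factor, the values were 5.72, 4.80 and 5.44 on the WT arrays against 5.61, 7.25 and 7.36 on the JNKΔhepa arrays, which overlap (log2 change 1.42, adjusted p = 0.182). Bid, a BH3-only death factor that JNK signalling can engage, had −0.70 (0.0608), the p53 target Plk2 −0.60 (0.128) and the clock kinase gene Csnk1e −0.38 (0.201). The chaperone gene Hspa1l had 0.33 (0.208). It was dim on all 6 arrays, so this size is not exact, and a second probe set gave −0.12.

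In the lists of lineage and amino acid genes, 0 of 20 hepatocyte lineage factors passed (5 at an unadjusted p under 0.05, all higher, median 0.16), with Prox1 at 0.58 (0.145), and 0 of 20 fetal and tumour-associated genes (3, median −0.03), with Mest at −0.51 (0.204). Fgf21 was the 1 call among 25 ATF4 amino acid response genes (median 0.10), C1qb among 46 complement and coagulation genes (−0.01) and Ppargc1a among 40 glucose and insulin genes (0.08). Over all genes 0.84% passed. Of 11 erythroid, 11 platelet and 11 mesothelial markers 0 passed in limma (0, 1 and 0 at an unadjusted p under 0.05), with medians of 0.01, −0.01 and −0.01.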
